A study of Mus musculus with 15 samples.

Results

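The genes described here are 9 genes that mark disease-associated microglia (DAM): Apoe, Lpl, Spp1, Itgax, Clec7a, Cst7, Gpnmb, Igf1 and Lgals3. They were chosen by name, as genes of this state, at a time when results of these data were known. All 9 are among the 38924 genes of the deposited files, and all 9 were expressed highly enough to be tested. RNA-seq was done on 15 libraries of myeloid cells sorted from the brain, and all mice were male wild-type C57BL/6J (B6) aged 12 months. Chow, the control diet (CD), was given to 1 set of mice, and the other set was moved to a western diet (WD) at 2 months. Cells positive for CD11b were taken from live, CD3e-negative cells of brain tissue without olfactory bulb and cerebellum, and were divided by FACS into those with low CD45 (CD45lo) and those with high CD45 (CD45hi). There were 4 libraries of CD CD45lo cells, 4 of WD CD45lo cells, 4 of CD CD45hi cells and 3 of WD CD45hi cells. The mice carried no disease allele, so these are the genes of a disease state measured in wild-type mice.

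Microglia are the resident macrophages of the brain. Near amyloid plaques, dying neurons and damaged myelin they can leave their homeostatic state, in which they express genes such as P2ry12 and Tmem119, and raise a set of genes for lipid handling, phagocytosis and lysosomal digestion. Loss of the homeostatic genes comes first in this program, and its later part depends on the lipid receptor TREM2. Several of the 9 genes are not particular to microglia. Apoe is strongly expressed by border macrophages, Itgax by dendritic cells, and Clec7a and Lgals3 by monocytes and other macrophages.

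The libraries held 11951412 to 17912272 expected counts each. Levels below are cpm, counts scaled to library size after TMM normalization, and 3 counts, the smallest amount read as a signal, were worth 0.156 to 0.282 cpm. This floor covers counting error only. CD CD45hi replicate 4 and WD CD45hi replicate 1 stood apart from the others on the second principal component of all genes, at 93 and -134.7 where the other 13 libraries lay between -4.5 and 21.5. The 10 microglial markers were present in every library. They summed to 14524 to 18537 cpm in CD45lo cells and 7101 to 8503 cpm in CD45hi cells, so the CD45hi sort also held microglial RNA. Summed markers of border macrophages rose from 65.9 to 230.2 cpm in CD45lo cells to 834.7 to 2682 cpm in CD45hi cells, and the sort therefore mixed cell types. In such samples more cells of a type and more RNA per cell cannot be told apart. Which libraries came from the same mouse is not stated. The deposited files of CD45hi and CD45lo cells share numbers in 7 pairs, and what these numbers mean is not stated either. The p-values measure the spread between these libraries, with 1 estimate shared by all 4 groups. Replicate pairs differed more in CD45hi cells (chi-square per degree of freedom 77.5 to 135.2) than in CD45lo cells (20.6 to 46.8). The shared estimate can thus be too narrow for CD45hi cells. Between diets, 2628 genes had an unadjusted edgeR p under 0.05 in CD45hi cells and 123 in CD45lo cells. With only the compared groups fitted, these numbers were 843 of 13451 and 556 of 13911.

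CD45hi cells carried far more RNA of the DAM genes than CD45lo cells on both diets. On WD, 8 of the 9 genes were higher in CD45hi cells in edgeR's test against a 1.5-fold difference (FDR under 0.05), where 4.01% of all 14967 tested genes were called higher. On CD, 7 of the 9 were, against 3.39% of all genes. With a block on the numbers that the files share, 6 were called on WD, without Gpnmb (FDR 0.106) and Lgals3 (FDR 0.225), and 7 on CD. Cst7 was the gene not called on WD without the block, and Cst7 and Gpnmb the genes not called on CD. The median log2 fold change of the 9 genes was 3.35 on WD and 3.64 on CD, beside 0 and 0.0357 over all tested genes. In both diets the CD45hi libraries all lay above the CD45lo libraries for 8 of the 9 genes, a pattern that 10% of all genes showed on WD and 8.26% on CD. The exception was Cst7 on WD and Gpnmb on CD.

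**Figure D1:**
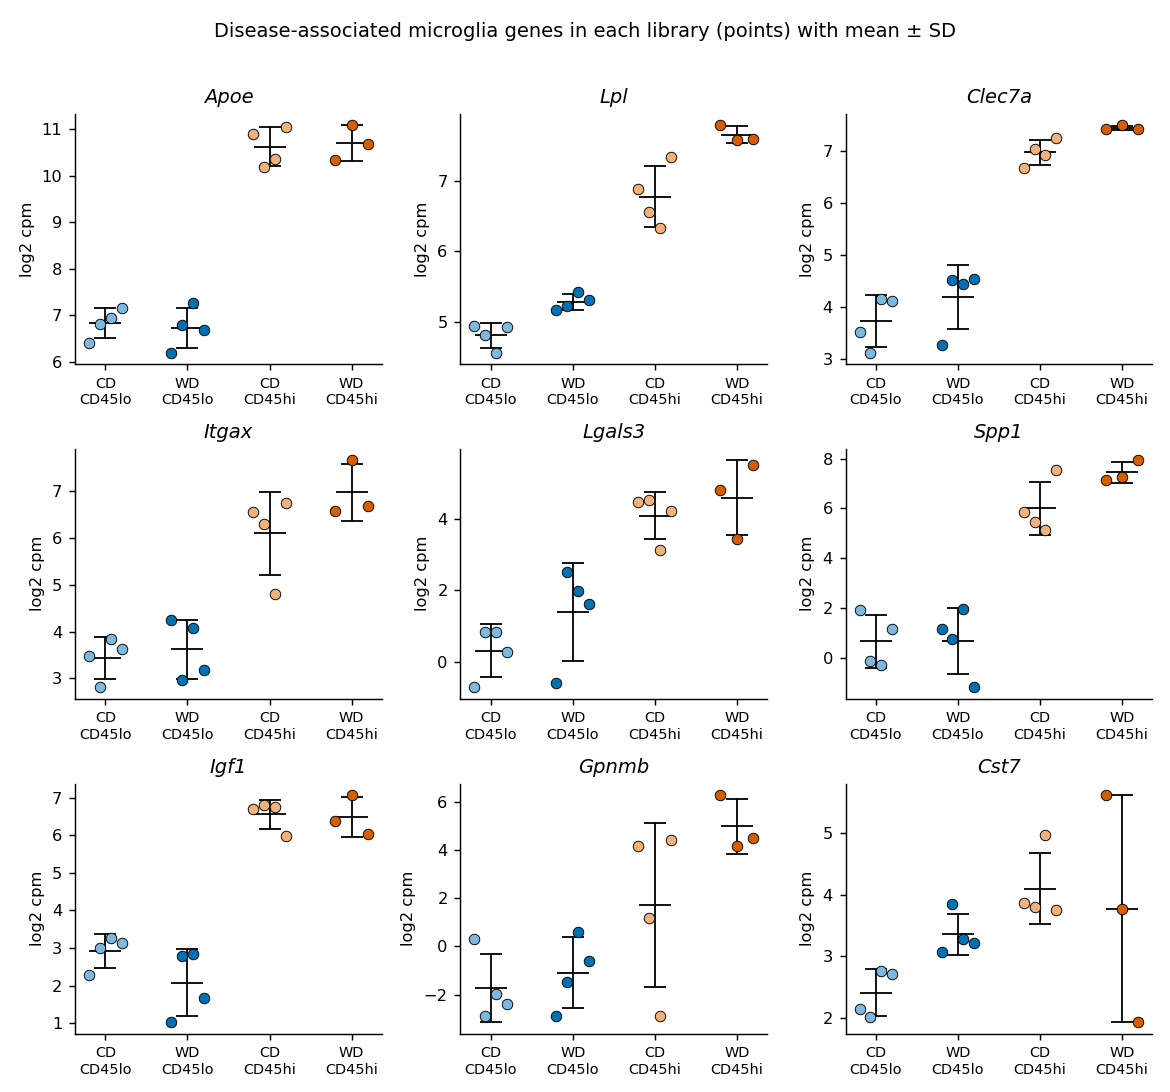
Level of each of the 9 DAM genes as log2 cpm with a prior count of 2 (y axis) in the 4 groups (x axis). Each point is 1 library, the bar is the group mean and the whiskers are 1 SD. The CD45hi libraries lie above the CD45lo libraries for every gene but Cst7 on WD and Gpnmb on CD, and Lpl steps up over all 4 groups without overlap.

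Per length of transcript (TPM), Apoe was by far the most abundant of the 9 in every group. In WD CD45hi cells its mean was 2106 TPM ± 530 (SD, n = 3), and Spp1 and Clec7a followed at 188.6 ± 64.8 and 155.7 ± 26.0 TPM, ranges that overlapped. Lpl came next at 70.9 ± 5.74 TPM, below every library of Spp1 and Clec7a. Itgax, Lgals3, Igf1 and Cst7 had means of 34.7 to 44.6 TPM, and Gpnmb was lowest at 14.2 ± 12.1 TPM. Gpnmb lay below Itgax in every library, and the ranges of the other pairs among these 5 genes overlapped. In CD CD45hi cells Apoe at 2125 ± 494.6 TPM was followed by Clec7a at 121.9 ± 22.4 TPM and Spp1 at 85.9 ± 70.1 TPM, which overlapped, and Gpnmb was again lowest at 3.77 ± 3.88 TPM (n = 4). The order differed in CD CD45lo cells, where Lpl at 20.98 ± 2.60 TPM and Clec7a at 15.9 ± 6.63 TPM followed Apoe at 214.2 ± 48.5 TPM, and Spp1 was near the bottom at 2.71 ± 2.05 TPM (n = 4 each).

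Of the genes for lipid handling, Apoe encodes apolipoprotein E, the main lipid carrier of the brain. Its level was 1285, 2186 and 1657 cpm in the WD CD45hi libraries and 73.3, 109.8, 153.1 and 103.0 cpm in the WD CD45lo libraries. It was 1897, 1176, 1324 and 2133 cpm in CD CD45hi cells and 84.1, 111.8, 123.0 and 143.1 cpm in CD CD45lo cells. The populations did not overlap on either diet, and the diets overlapped within each population. The log2 fold change of CD45hi against CD45lo was 3.96 (SE 0.275, FDR 2.53e-07) on WD and 3.82 (SE 0.266, FDR 1.64e-07) on CD. Apoe lies at chr7:19696109-19699188 on the minus strand.

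Lpl encodes lipoprotein lipase, which frees fatty acids from triglycerides. It stood at 222.5, 192.5 and 194.0 cpm in WD CD45hi cells and 118.5, 94.1, 80.5 and 162.7 cpm in CD CD45hi cells. In CD45lo cells it was 35.6, 37.1, 42.6 and 39.6 cpm on WD and 30.6, 27.8, 23.4 and 30.2 cpm on CD. Lpl was the single member whose 4 groups were ordered with no overlap at any step, from CD CD45lo through WD CD45lo and CD CD45hi to WD CD45hi. CD45hi exceeded CD45lo by 2.39 in log2 (SE 0.233, FDR 2.22e-05) on WD and 2.02 (SE 0.221, FDR 0.000110) on CD, the smallest differences among the members called. RSEM gave Lpl (chr8:68880491-68907448, plus strand) fractional counts in all 15 libraries, so some of its reads also matched elsewhere.

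Spp1 and Igf1 encode secreted ligands. Spp1 is osteopontin, which binds integrins and CD44, and it had the largest difference between the populations. It reached 142.3, 154.8 and 245.7 cpm in WD CD45hi cells but only 2.10, 1.56, 3.79 and 0.303 cpm in WD CD45lo cells, where the lowest library held 4 counts. In CD CD45hi cells it was 57.01, 44.2, 35.0 and 187.3 cpm and in CD CD45lo cells 3.65, 0.778, 0.676 and 2.10 cpm. Replicate 4 of CD CD45hi thus lay among the WD libraries while the other 3 lay below all of them. The log2 fold change was 6.52 (SE 0.790, FDR 6.41e-05) on WD and 5.49 (SE 0.744, FDR 0.000208) on CD. The CD value was 4.65 without CD CD45hi replicate 4 and 6.08 without CD CD45lo replicate 1, and it passed the test both times. Spp1 lies at chr5:104435118-104441050 (plus strand) and overlaps the unclassified transcript Gm42793 on the same strand.

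Igf1, insulin-like growth factor 1, supports neurons and myelin. Its level was 82.2, 134.2 and 65.2 cpm in WD CD45hi cells and 103.9, 111.7, 107.3 and 63.1 cpm in CD CD45hi cells. In CD45lo cells it was 1.90, 6.83, 7.08 and 3.03 cpm on WD and 4.71, 7.94, 9.53 and 8.68 cpm on CD. The populations were apart on both diets and the diets overlapped in both. The difference was 4.31 in log2 (SE 0.455, FDR 1.93e-05) on WD and 3.64 (SE 0.429, FDR 7.15e-05) on CD. The antisense gene Igf1os overlaps Igf1 (chr10:87858265-87937042, plus strand), and Igf1os held at most 3 counts in any library and 0 in 11 of the 15. The kit did not mark strand, so reads of the 2 genes cannot be told apart where they overlap.

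Itgax, Clec7a and Gpnmb encode membrane proteins. Itgax is CD11c, the alpha chain of an integrin that binds complement fragments, and it is a standard marker of dendritic cells. It stood at 95.8, 203.5 and 102.3 cpm in WD CD45hi cells and 93.9, 79.1, 27.8 and 107.4 cpm in CD CD45hi cells. The CD45lo libraries held 7.72 to 18.8 cpm on WD and 6.85 to 14.3 cpm on CD. The lowest CD45hi library, CD replicate 3 at 27.8 cpm, still exceeded every CD45lo library. The log2 difference was 3.35 (SE 0.462, FDR 0.000359) on WD and 2.80 (SE 0.437, FDR 0.00136) on CD. Itgax lies at chr7:128129547-128150657 on the plus strand.

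Clec7a is Dectin-1, a receptor for fungal beta-glucans that signals through SYK. Its WD CD45hi libraries agreed closely at 171.2, 180.6 and 171.5 cpm and lay above the CD CD45hi libraries at 102.1, 131.2, 121.9 and 152.8 cpm. In CD45lo cells it was 9.51, 22.9, 21.6 and 23.0 cpm on WD and 11.4, 8.61, 17.8 and 17.2 cpm on CD. CD45hi cells exceeded CD45lo cells by 3.18 in log2 (SE 0.319, FDR 1.75e-05) on WD and 3.20 (SE 0.309, FDR 1.07e-05) on CD. Clec7a lies at chr6:129461591-129472779 on the minus strand, and GENCODE M21 gives it the type polymorphic pseudogene.

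Gpnmb is a transmembrane glycoprotein of lysosome-rich macrophages, and it varied most among the CD45hi libraries. WD CD45hi cells held 78.3, 17.9 and 22.7 cpm. CD CD45hi cells held 17.9, 2.15, 0 and 21.2 cpm, so that it was not detected in replicate 3, where up to 0.264 cpm could have been missed. The 8 CD45lo libraries held 0 to 1.37 cpm, and 5 of them were at or under 3 counts. The WD libraries were apart and the CD libraries were not. The log2 difference was 6.17 on WD (SE 1.62, FDR 0.0342) and 4.97 on CD (SE 1.52, FDR 0.0925), and both values depend on the handling of near-empty CD45lo libraries. The WD call was lost when WD CD45hi replicate 1 (log2 5.22, FDR 0.0988) or any 1 of the 4 WD CD45lo libraries was left out (FDR 0.0518 to 0.103). On CD the gene passed without CD CD45hi replicate 3 (log2 5.39, FDR 0.0286) or without CD CD45lo replicate 1 (log2 7.29, FDR 0.0483). Gpnmb lies at chr6:49036546-49070929 on the plus strand.

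Lgals3, galectin-3, binds sugars on cell surfaces and on damaged lysosomes. It stood at 28.1, 10.8 and 45.9 cpm in WD CD45hi cells and 22.2, 23.0, 8.71 and 18.7 cpm in CD CD45hi cells. In CD45lo cells it was 0.525, 5.57, 3.84 and 2.96 cpm on WD and 0.471, 1.66, 1.66 and 1.08 cpm on CD. The populations did not overlap on either diet. The difference was 3.13 in log2 (SE 0.722, FDR 0.0209) on WD and 3.89 (SE 0.726, FDR 0.00449) on CD. The WD call was lost without WD CD45hi replicate 3 (log2 2.59, FDR 0.0732), WD CD45lo replicate 3 (FDR 0.0536) or WD CD45lo replicate 4 (FDR 0.0623). Lgals3 lies at chr14:47367751-47386160 on the plus strand.

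Cst7, cystatin F, inhibits lysosomal cysteine proteases and differed least between the populations. Its WD CD45hi libraries held 48.9, 13.4 and 3.68 cpm and its WD CD45lo libraries 8.26, 14.2, 9.55 and 9.17 cpm. On CD it was 14.5, 13.8, 31.0 and 13.3 cpm in CD45hi cells and 4.29, 3.89, 6.64 and 6.41 cpm in CD45lo cells. On WD the CD45hi libraries lay on both sides of the CD45lo libraries, and on CD they lay above them. The log2 difference was 1.09 (SE 0.645, FDR 0.507) on WD and 1.77 (SE 0.619, FDR 0.212) on CD. Without WD CD45hi replicate 1 the WD value was -0.27. Cst7 lies at chr2:150570415-150578944 on the plus strand.

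**Figure D2:**
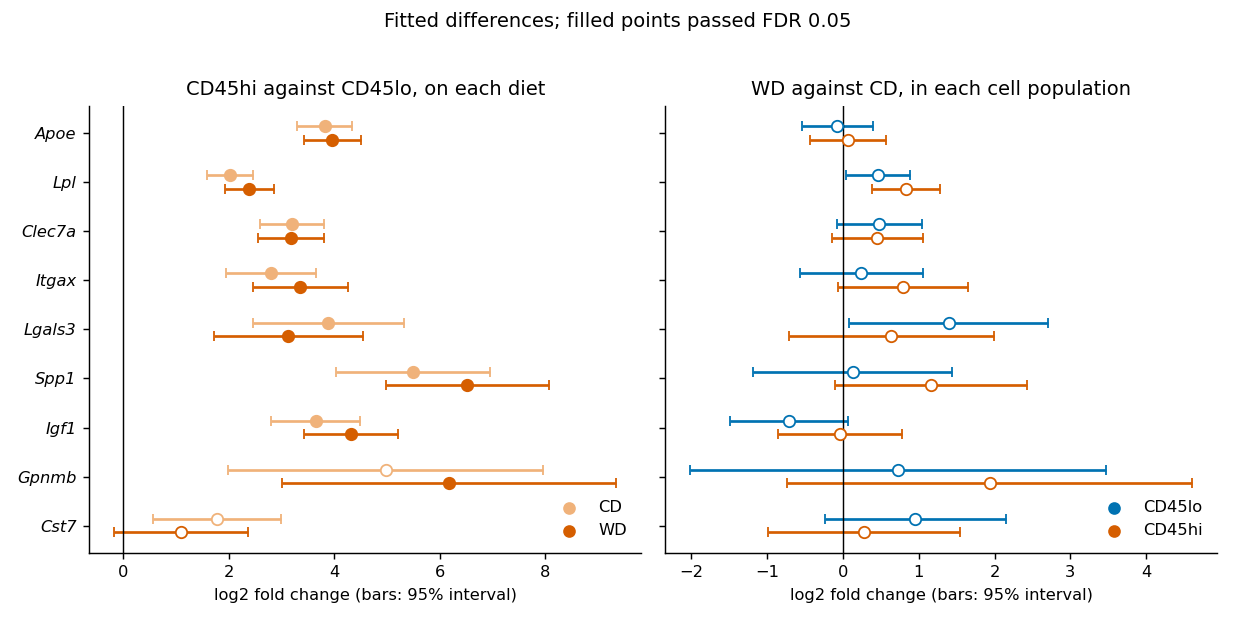
Fitted log2 fold changes (x axis) of the 9 genes (y axis) with 95% intervals, for CD45hi against CD45lo on each diet (left) and for WD against CD in each population (right). Filled points passed FDR 0.05, which 8 genes did on WD and 7 on CD in the left panel and 0 in the right panel.

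The promoters of 5 of the genes are shown because each holds a motif of AP-1 or PU.1, factors active in macrophages. RefSeq start sites on GRCm38.p6 (the mm10 assembly) gave 12 promoters for 8 of the 9 genes, each of 300 bases that span the start, most of them before it, and Lpl had no entry. The AP-1 motif TGANTCA was searched on both strands and was present in 4 promoters of 4 genes, Itgax, Cst7, Gpnmb and Igf1, and in 7.81% of all 32851 promoters of that length. The PU.1 motif GAGGAANT was present in 1, that of Spp1, and in 7.44% of all. Capitals below mark these 2 motifs, and all sequences run 5′ to 3′ on the plus strand, the strand of all 5 genes.
Itgax, chr7:128129300-128129599: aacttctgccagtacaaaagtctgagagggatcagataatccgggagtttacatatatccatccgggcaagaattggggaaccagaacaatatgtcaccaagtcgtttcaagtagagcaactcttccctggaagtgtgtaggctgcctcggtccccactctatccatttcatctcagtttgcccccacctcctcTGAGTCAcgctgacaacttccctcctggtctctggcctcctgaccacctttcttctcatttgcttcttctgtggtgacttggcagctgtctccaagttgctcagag
Cst7, chr2:150570165-150570464: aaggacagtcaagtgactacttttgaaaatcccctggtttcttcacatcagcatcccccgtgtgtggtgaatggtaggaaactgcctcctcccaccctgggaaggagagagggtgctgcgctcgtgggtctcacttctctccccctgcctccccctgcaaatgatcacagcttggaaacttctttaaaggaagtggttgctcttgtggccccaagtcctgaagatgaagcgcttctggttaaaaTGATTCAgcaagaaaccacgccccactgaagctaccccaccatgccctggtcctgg
Gpnmb, chr6:49036268-49036567: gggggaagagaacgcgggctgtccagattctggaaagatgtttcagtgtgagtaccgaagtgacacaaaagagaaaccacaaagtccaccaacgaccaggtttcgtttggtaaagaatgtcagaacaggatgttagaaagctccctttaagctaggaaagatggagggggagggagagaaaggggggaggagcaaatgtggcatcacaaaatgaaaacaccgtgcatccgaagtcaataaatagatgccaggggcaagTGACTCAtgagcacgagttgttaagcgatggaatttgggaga
Igf1, chr10:87860861-87861160: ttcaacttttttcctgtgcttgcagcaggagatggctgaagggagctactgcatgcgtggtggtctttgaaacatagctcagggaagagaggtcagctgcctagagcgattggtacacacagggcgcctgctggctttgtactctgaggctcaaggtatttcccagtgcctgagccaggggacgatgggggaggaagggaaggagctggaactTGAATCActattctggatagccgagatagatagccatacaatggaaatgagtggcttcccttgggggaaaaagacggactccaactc
Spp1, chr5:104434861-104435160: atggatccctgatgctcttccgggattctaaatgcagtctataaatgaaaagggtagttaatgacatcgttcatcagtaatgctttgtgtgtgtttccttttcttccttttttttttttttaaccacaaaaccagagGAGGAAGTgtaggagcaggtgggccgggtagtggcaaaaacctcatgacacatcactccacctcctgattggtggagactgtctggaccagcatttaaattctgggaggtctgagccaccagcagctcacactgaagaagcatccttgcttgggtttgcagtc

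Counted from the start site as base 1, with no base 0, the AP-1 match began at -56 in Itgax, -37 in Igf1, -6 in Cst7 and 9 in Gpnmb. The PU.1 match of Spp1 began at -113. The C/EBP motif TTNNGNAA was found for 5 of the 8 genes (Apoe, Spp1, Itgax, Cst7 and Gpnmb) and in 40.7% of all promoters, and in Cst7 it overlapped the AP-1 match. A motif of interferon regulatory factors occurred in Spp1 alone and in 3.44% of all promoters. The TATA box letters TATAAA were found for Apoe, Spp1 and Clec7a and in 13.6% of all. These matches began at -100 and -96 in an Apoe promoter, at -211 in Spp1 and at 43 in Clec7a. The E-box CACGTG was in 0 of the 12 promoters and in 7.15% of all. The M-box TCATGTG was in 0 and in 3.77% of all, and an NF-kB motif in 0 and in 0.411%. These matches describe the letters in these windows only.

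The comparison of WD with CD within each population asked whether the diet changed the DAM genes. None of the 9 passed in CD45hi cells (edgeR, FDR under 0.05), where 0.254% of all genes did, and none in CD45lo cells, where 0% did. At an unadjusted p under 0.05 there was 1 of the 9 genes in each population, Lpl both times, where 2628 of all 14967 genes reached it in CD45hi cells and 123 in CD45lo cells. DESeq2 called 1 gene in CD45hi cells, again Lpl, and 0 in CD45lo cells, and limma-voom called 0 in both. The fitted difference was above 0 for 8 of the 9 genes in CD45hi cells and for 7 in CD45lo cells. The median over the 9 was 0.639 and 0.468 in log2, beside -0.019 and 0.00424 over all genes.

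Lpl came nearest to a difference between the diets. Its 3 WD CD45hi libraries lay above all 4 CD CD45hi libraries, and its 4 WD CD45lo libraries lay above all 4 CD CD45lo libraries. The log2 difference was 0.83 in CD45hi cells (SE 0.228, 95% interval 0.387 to 1.28, unadjusted p = 0.00197 and FDR 0.104 in edgeR). It was 0.47 in CD45lo cells (SE 0.214, 95% interval 0.0481 to 0.888, unadjusted p = 0.0433 and FDR 1 in edgeR). Lpl passed in CD45hi cells without CD CD45hi replicate 4 (log2 1.05, FDR 0.0343), and it did not pass in the fit that follows RSEM's transcript lengths (log2 0.63, FDR 0.193). Over 26 alternatives its FDR in CD45hi cells ran from 0.00974 to 0.785, and it passed in 3 of them.

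Libraries were also apart for Clec7a in CD45hi cells and for Cst7 in CD45lo cells, each higher on WD, so that 2 of the 9 genes were apart in each population. Of all genes, 2.58% were apart and higher on WD in CD45hi cells and 1.13% in CD45lo cells. The Clec7a difference in CD45hi cells was 0.46 in log2 (95% interval -0.137 to 1.05, FDR 0.460). The Cst7 difference in CD45lo cells was 0.96 (95% interval -0.235 to 2.15, FDR 1).

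The other diet differences had wide intervals. Spp1 differed by 1.16 in CD45hi cells (95% interval -0.107 to 2.43, FDR 0.366), and by 1.99 without CD CD45hi replicate 4 (FDR 0.125). Gpnmb differed by 1.94 (95% interval -0.732 to 4.61, FDR 0.490), and by 0.97 without WD CD45hi replicate 1 (FDR 0.786). These intervals include both no difference and a difference of more than 4-fold. Itgax differed by 0.80 (95% interval -0.0587 to 1.65) and Lgals3 by 0.64 (95% interval -0.710 to 1.99). Lgals3 had the largest value in CD45lo cells at 1.40 (95% interval 0.0858 to 2.71, unadjusted p = 0.0522 and FDR 1 in edgeR). The intervals take the normal multiple of the SE and are narrower than the test allows for, and this gene's leaves out 0 although its p is above 0.05.

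For Apoe the interval ran from -0.435 to 0.567 in CD45hi cells and from -0.539 to 0.394 in CD45lo cells. Igf1 differed by -0.04 in CD45hi cells (95% interval -0.854 to 0.775) and by -0.71 in CD45lo cells (95% interval -1.49 to 0.0708). It was the single member with values below 0 in both populations. The interaction, the difference of the CD45hi and CD45lo diet effects, passed for 0 of the 9 genes, where 0.00668% of all genes did. Its unadjusted p was under 0.05 for 0 of the 9, DESeq2 and limma-voom called 0, and its FDR in edgeR ran from 0.754 for Igf1 to 1.00 for Clec7a.

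The next genes belong to the DAM program beyond the 9. Of 27 others, 7 were higher in CD45hi cells on WD (Axl, Lyz2, Cd52, Csf1, Ccl6, H2-D1 and Fth1) and 0 lower, beside the 4.01% called higher among all genes. On CD 6 were higher and 1 lower. Their median log2 fold change was 0.482 on WD and 0.199 on CD. The TAM receptor Axl, which takes up dying cells, went from a mean of 24.6 to 286.1 cpm on WD (log2 3.54, FDR 1.09e-06). Fabp5, a fatty acid binding protein, and Ch25h, which makes 25-hydroxycholesterol, had larger fold changes of 4.02 and 5.56 but lay near the floor in CD45lo cells, at 1.11 and 0.118 cpm, and did not pass (FDR 0.125 and 0.0864). At the other end were the receptor Trem2 at -0.85 (251.5 cpm in CD45lo and 139.3 cpm in CD45hi cells on WD, FDR 0.226), the protease Ctsl at -0.70 (FDR 0.388) and the adhesion molecule Cadm1 at -0.64 (FDR 0.536). The protease inhibitor gene Serpine2 was the 1 lower on CD (log2 -1.16, FDR 0.0329).

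**Figure D3:**
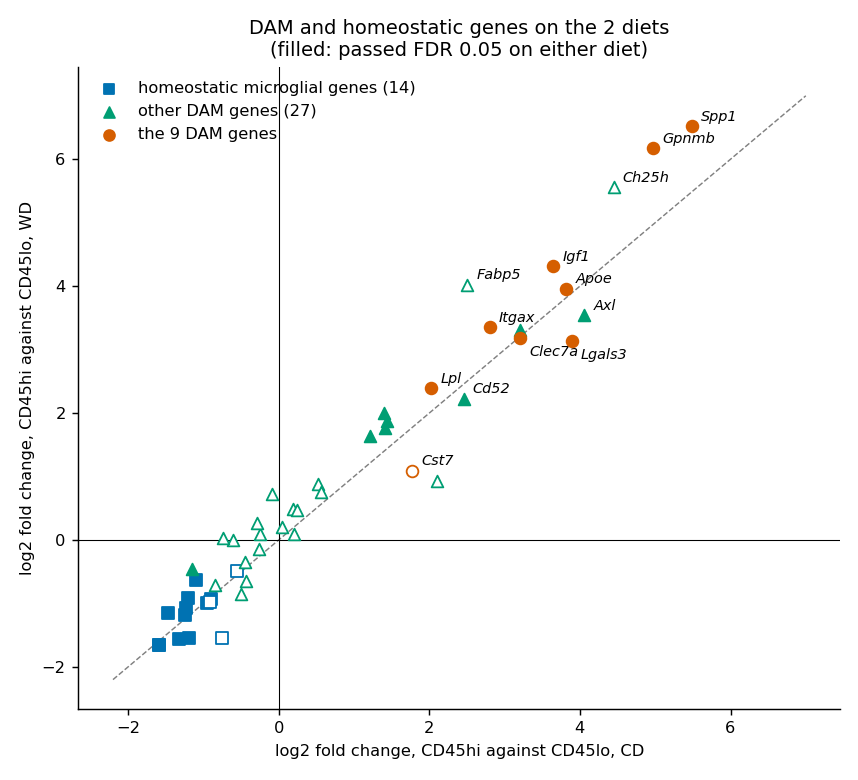
Log2 fold change of CD45hi against CD45lo cells on CD (x axis) and on WD (y axis), where 1 symbol is 1 gene and the dashed line marks equal values. Filled symbols passed FDR 0.05 on either diet. The 9 DAM genes (circles) lie between 1.09 and 6.52 on WD, the 27 other DAM genes (triangles) between -0.85 and 5.56, and the 14 homeostatic genes (squares) all below 0 on both diets.

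The homeostatic genes that fall early in the DAM state were all lower in the fit on both diets. Of 14, 8 passed on WD, where 1.17% of all genes were called lower, and 11 on CD, where 0.588% were. The purinergic receptors P2ry12 (log2 -1.66, FDR 8.8e-06 on WD) and P2ry13 (-1.56) and the fructose transporter Slc2a5 (-1.65) were lowest. Csf1r, the survival receptor of microglia (-0.49), and the transcription factor Sall1 (-0.92) were among those nearest to 0 and did not pass on WD. None of the 14 passed between diets in either population. At an unadjusted p under 0.05 there were 2 in CD45hi and 0 in CD45lo cells (2628 and 123 of all genes), and DESeq2 and limma-voom called 0.

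Of 13 tested genes that bind, lipidate or receive Apoe or Lpl, 2 were higher on WD, the lipid droplet protein Plin2 and the lipase cofactor Apoc2. Plin2 was higher on CD as well. Plin2 went from a mean of 10.6 to 95.9 cpm on WD (log2 3.17, FDR 0.000328) and from 15.6 to 53.0 cpm on CD (log2 1.76, FDR 0.0358). Apoc2, a neighbour of Apoe on its chromosome, was at or under 3 counts in all 4 WD CD45lo libraries and at a mean of 6.82 cpm in WD CD45hi cells (FDR 0.0135), so the size of its fold change is not determined. The nuclear receptor Nr1h3 (log2 3.83, 0.205 and 3.02 cpm) and the receptor Vldlr (log2 3.20, 0.189 and 1.82 cpm) had large fold changes at low levels and did not pass (FDR 0.266 and 0.482). The lipid exporter Abca1 (-0.55), the endocytic receptor Lrp1 (-0.39) and the nuclear receptor Nr1h2 (-0.36) were lowest and did not pass on WD.

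Of 8 receptors and integrin partners of Spp1 and Itgax, Cd44 (log2 4.97, FDR 3.26e-06) and Itga4 (4.51, FDR 9.31e-07) rose on WD and both passed on CD, while Itgb3 fell on WD (-1.47, FDR 0.0183). Itgb2, the beta chain that pairs with CD11c, went from 414.0 to 713.7 cpm on WD (log2 0.79) and did not pass (FDR 0.219). Nor did the integrin chains Itgb5 (-0.66) and Itga9 (-0.41). Spp1 and its receptor Cd44 were thus both higher in CD45hi cells.

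Of the 8 genes that carry the Clec7a signal, 0 passed on either diet, with an unadjusted p under 0.05 for 0 and calls by DESeq2 and limma-voom for 0. The kinase Syk was at 170.8 cpm in CD45lo and 181.1 cpm in CD45hi cells on WD (log2 0.08) and the adaptor Card9 at 26.1 and 29.4 cpm (log2 0.18). The phospholipase Plcg2 (0.04) and the kinase Prkcd (0.20) differed as little. The values of the 8 ran from -0.61 for Src to 0.38 for Bcl10 on WD, and that of the receptor itself was 3.18.

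Of 4 tested proteases that cystatin F inhibits, Ctsc rose on WD (log2 1.00, FDR 0.0239) and on CD (0.99, FDR 0.0225). Lgmn fell on CD (-0.94, FDR 0.0267) and had a value of -0.53 on WD. Ctsh (0.12) and Ctsl did not pass on WD. Of 9 tested partners of Igf1 and Lgals3, 1 passed on WD and 0 on CD, where 2 had an unadjusted p under 0.05, DESeq2 called 3 and limma-voom 0. The gene that passed was Igf2r, from a mean of 1.02 to 35.0 cpm (log2 5.08, FDR 0.0110). Its WD CD45hi libraries were far apart at 3.83, 17.8 and 83.2 cpm, and its WD CD45lo libraries held 0.445 to 1.81 cpm. The receptor Igf1r was at 30.5 cpm in CD45lo and 29.6 cpm in CD45hi cells on WD (log2 -0.04). The binding proteins Igfbp2 (2.81), Igfbp4 (1.27) and Igfbp5 (-0.59) and the lysosomal protein Lamp2 (-0.10) did not pass.

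Among 18 transcription factors and receptors linked to this program, 3 were higher on both diets. They were Pparg, a nuclear receptor for fatty acids (0.312 to 13.7 cpm, log2 5.39 on WD, at or under 3 counts in 2 of the WD and all 4 of the CD CD45lo libraries), Bhlhe40 (4.90) and Cebpb (2.18). Bhlhe40, a repressor of cholesterol and lysosomal genes in macrophages, went from 2.72 to 81.5 cpm on WD (FDR 0.00124). The TGF-beta receptor Tgfbr1 fell on CD (-1.09, FDR 0.00444). Cebpa (-0.93) and Smad3 (-0.89) had the lowest values on WD beside Tgfbr1 (-0.85), and none of these 3 passed there. Spi1, which encodes PU.1, was at 97.5 cpm in CD45lo and 81.7 cpm in CD45hi cells on WD and did not pass (FDR 0.942).

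Markers of several other cell types were also higher in CD45hi cells. All 9 border macrophage markers (the highest in WD CD45hi cells was Mrc1 at 1168 cpm) and all 7 patrolling monocyte markers (the highest was Itgal at 264 cpm) were higher in CD45hi cells on both diets. The study describes the protein of Itgal as a marker of peripheral immune cells, a wider group than patrolling monocytes. Of 7 tested classical monocyte markers 3 were higher on WD and 5 on CD, and of 10 neutrophil markers 6 on each diet. Of 9 dendritic markers 3 were higher on each diet, and of 7 tested lymphocyte markers 4 on WD and 2 on CD. Of 14 markers of neurons, glia and vessels, 1 was higher on WD and Aldh1l1 was lower on CD. Their part in the rise of the DAM genes was not tested.

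Markers of most of these cells were also detected in the CD45lo libraries, and the sums of other brain cells overlapped between the populations. Patrolling monocyte markers summed to 11.7 to 26.6 cpm there and to 419.5 to 1061 cpm in CD45hi cells, and Cd300e was at 0 in all WD CD45lo libraries. Classical monocyte markers summed to 33.6 to 175.4 cpm against 564.5 to 1265 cpm, and neutrophil markers to 638.7 to 1309 cpm against 1410 to 3900 cpm. Much of the neutrophil sum in CD45lo cells was Csf3r, with means of 551.4 cpm on CD and 683.8 cpm on WD. Csf3r differed little between the populations, at 729.5 cpm on CD and 649.2 cpm on WD in CD45hi cells. Dendritic markers summed to 26.98 to 45.1 cpm against 159.4 to 327 cpm, with Ccr7 at 0 in all CD45lo libraries. Lymphocyte markers stayed at or below 0.571 cpm in CD45lo cells and reached 11.6 to 158 cpm in CD45hi cells. Markers of other brain cells lay at 110.5 to 138.3 cpm and 126.5 to 290.5 cpm.

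Within the CD45hi groups the 9 genes did not share 1 order of libraries. CD CD45hi replicate 4 was highest of its group for 6 genes (Apoe, Lpl, Spp1, Itgax, Clec7a and Gpnmb) and lowest for Cst7 and Igf1. CD CD45hi replicate 3 was lowest for 5 genes (Lpl, Spp1, Itgax, Gpnmb and Lgals3) and highest for Cst7. On WD, replicate 1 was highest for Lpl, Cst7 and Gpnmb and lowest for Apoe, Spp1, Itgax and Clec7a. Replicate 2 was highest for Apoe, Itgax, Clec7a and Igf1 and replicate 3 for Spp1 and Lgals3.

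Marker sums differed among the same libraries. WD CD45hi replicate 1, with the most Gpnmb and Cst7 of all CD45hi libraries, had the lowest border macrophage sum, 834.7 cpm, where the other 6 held 1944 to 2682 cpm. Its microglial sum of 8132 cpm lay within the range of the others. WD CD45hi libraries held 601.1 to 1061 cpm of patrolling monocyte markers and 1410 to 2444 cpm of neutrophil markers, and CD CD45hi libraries 419.5 to 739.7 cpm and 1638 to 3900 cpm. For both sums the ranges of the diets overlapped. In the fit of the diets in CD45hi cells, 7 of 7 patrolling monocyte markers were above 0 (median log2 0.952). Of the 10 neutrophil markers 0 were (median log2 -0.931), and none of either list passed in edgeR. These values stand beside the diet differences of Lpl, Clec7a and Spp1 in CD45hi cells, which did not pass in edgeR. The part of these marker levels in those differences was not tested. Of 63 tested markers of these other cells 0 passed between diets in edgeR in either population. In CD45hi cells 11 had an unadjusted p under 0.05, DESeq2 called 5 and limma-voom 1, and in CD45lo cells these numbers were 6, 0 and 0. The 11 of 63 stand beside 2628 of 14967 among all genes. They were not spread evenly, and 7 of the 11 were among the 14 markers of neurons, glia and vessels. DESeq2 called 4 of these 14, and 10 of the 14 were above 0 on WD in the fit. Their sums were 184.5 to 290.5 cpm in WD CD45hi and 126.5 to 197.2 cpm in CD CD45hi libraries, which overlapped.

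**Figure D4:**
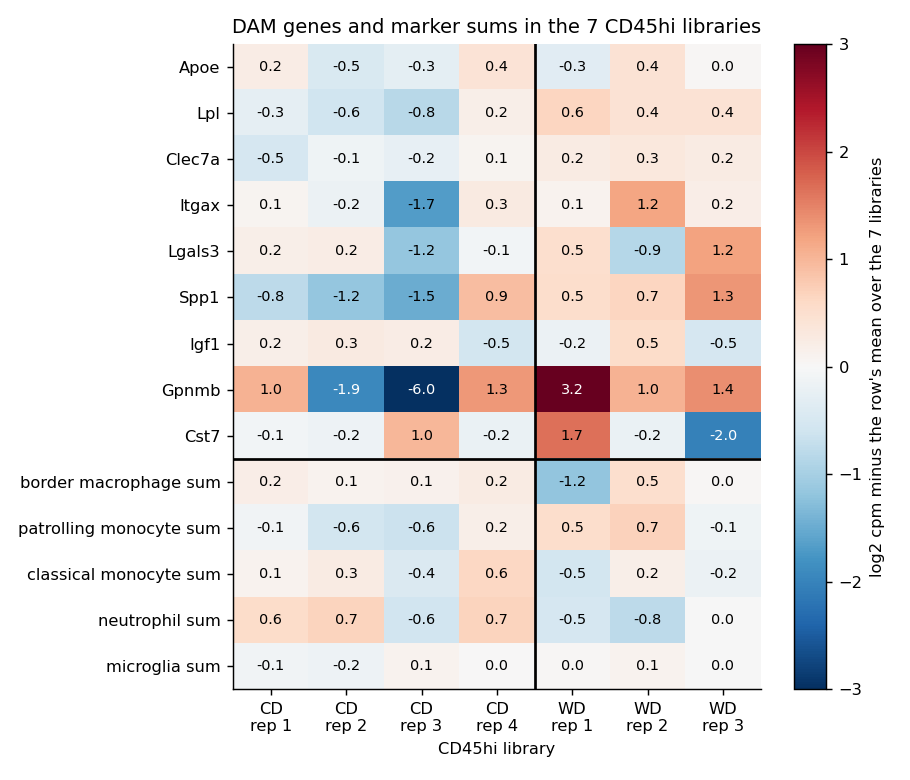
The 9 DAM genes and the summed markers of 5 cell types (rows) in the 7 CD45hi libraries (columns), as log2 cpm minus the row's mean over the 7 libraries, printed in each cell. Red is above and blue below the row's mean, and colours stop at 3 and -3. Gpnmb runs from -6.02 in CD replicate 3 to 3.17 in WD replicate 1, Apoe runs from -0.46 to 0.43, and the border macrophage sum is lowest in WD replicate 1.

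The deposited files also give the mean transcript length that RSEM assigned to each gene in each library. It moved with the groups for Lpl and varied widely between libraries for Igf1. For Lpl the length was 2569 to 3135 bases in the 8 CD45lo libraries and 3246 to 3954 bases in the 7 CD45hi libraries. It was 3797 to 3954 bases in WD CD45hi and 3246 to 3690 bases in CD CD45hi cells, so WD and CD were apart as well. A longer transcript yields more counts per molecule. The ratio of the WD group means of Lpl was 5.24 in cpm and 2.57 in TPM. TPM also changes the scaling between libraries, and for Itgax, whose length was constant, the ratio was 10.2 in cpm and 6.93 in TPM. A fit with offsets for these lengths gave a log2 difference of 1.89 on WD (FDR 0.000802) and 1.63 on CD (FDR 0.00231), and Lpl stayed past the test.

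For Igf1 the length was 5663 and 5087 bases in WD CD45hi replicates 1 and 3, 2423 bases in replicate 2, and 1797 to 3114 bases in the CD CD45hi libraries. In CD45lo cells it was 1662 to 2813 bases on CD and 1836 to 3888 bases on WD, so it did not separate the populations. The mean level of Igf1 in CD45hi cells was 93.9 cpm ± 36.0 (SD, n = 3) on WD and 96.5 cpm ± 22.5 (SD, n = 4) on CD. In TPM it was 37.5 ± 32.6 and 68.5 ± 22.7. The ratio of the diet means was 0.973 in cpm and 0.547 in TPM, where that of Itgax was 1.74 and 1.65. With length offsets the diet difference of Igf1 in CD45hi cells was -0.76 in log2 and did not pass (FDR 0.537). The estimates of single transcripts were not used here. Itgax, Cst7 and Gpnmb had a single transcript length in every library.

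**Figure D5:**
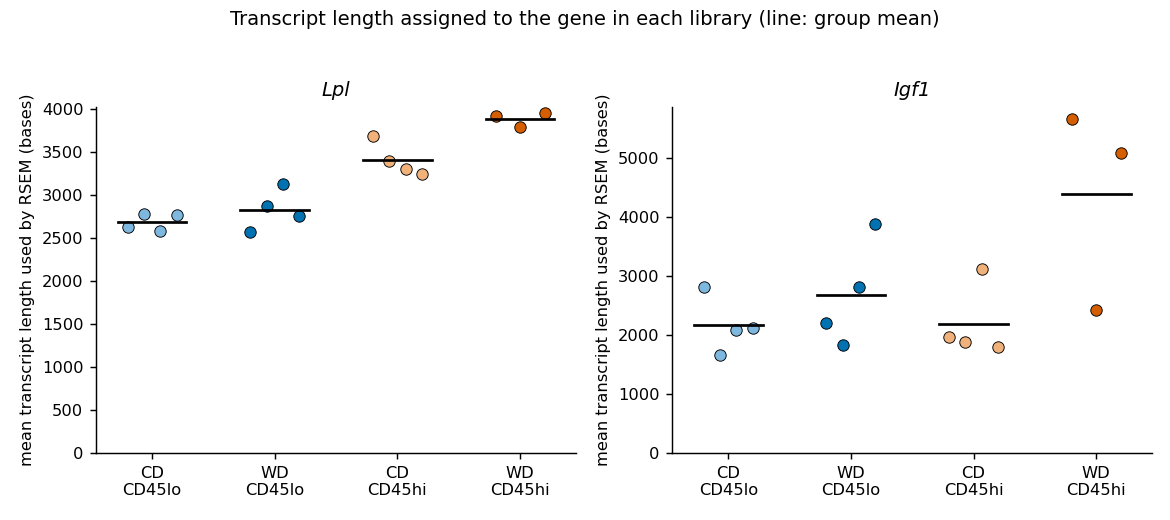
Mean transcript length in bases that RSEM assigned to Lpl (left) and Igf1 (right) in each library (points) of the 4 groups (x axis), with the group mean as a line. The Lpl lengths of CD45hi libraries all lie above those of CD45lo libraries, and the 2 highest Igf1 lengths, 5663 and 5087 bases, are WD CD45hi replicates 1 and 3.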

How the data were processed

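RNA-seq libraries of sorted brain CD11b-positive cells were used. Per the labels and the study's methods, the authors made poly(A) libraries (TruSeq), sequenced 75 bp read pairs on 2 kinds of Illumina instrument (which library ran on which is not given in the sources used here), trimmed them and ran RSEM 1.2.12 on mm10. They deposited for each gene an expected count, not normalized, and a TPM value, scaled to the same total in each library. The annotation release is not given in the sources used here.

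Expected counts were rounded and genes that reached 1 cpm in 2 or more libraries were tested (14967 of 38924). All 15 libraries entered 1 fit of 4 groups with edgeR 4.0.16 in R 4.3.3 (TMM, earlier quasi-likelihood form). CD45hi and CD45lo cells were compared with glmTreat at 1.5-fold, diets and interaction with glmQLFTest, with Benjamini-Hochberg adjustment over all genes. SE is the log2 fold change divided by the square root of F, and 95% intervals are 1.96 SE wide on each side. Samples were grouped by their titles. Replicates were compared over 21 pairs, and no 2 were repeats (chi-square per degree of freedom 20.6 to 135.2). Scripts were tested on simulated counts.

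All 9 DAM genes are named. Of each other list any gene may be named, and those with the 3 highest and 3 lowest log2 fold changes between the populations on WD are. Of marker lists the most abundant may be named. Values of some single genes of these lists are not reported here. Genes with the nearest pattern were those with the smallest root mean square difference of centred log2 cpm (prior count 2), among 8253 genes with a mean of at least 10 cpm. The genes and lists were chosen with earlier results of these data known. Coordinates are from GENCODE M21, which lists 37607 of the 38924 identifiers. Alternatives were DESeq2 1.42.0, limma-voom (limma 3.58.1), other filters, scalings and thresholds, replicate blocks and leaving out libraries. Offsets for RSEM's lengths and limma on log2 TPM (pseudocount 0.5) were added after seeing the data.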

Additional observations from a re-analysis of the deposited data

Results flagged for a closer look

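In groups of 4 libraries, 5 of 27 tested sets of values had 1 library far from the others, by the share of the whole range that its gap to the nearest library takes (Dixon's ratio, against its 95% critical value). Chance flags about 1 in 20 such sets. Spp1 in CD CD45hi replicate 4 had a ratio of 0.856, with 187.3 cpm where the others held 35.0 to 57.01 cpm. Igf1 in the same library had a ratio of 0.840, with 63.1 cpm below the 103.9 to 111.7 cpm of the others. Cst7 in CD CD45hi replicate 3 had the highest ratio, 0.935, with 31.0 cpm where the others held 13.3 to 14.5 cpm. In CD45lo cells Clec7a in WD CD45lo replicate 1 had a ratio of 0.896, with 9.51 cpm below the 21.6 to 23.0 cpm of the others. Gpnmb in CD CD45lo replicate 1 had a ratio of 0.890, with 1.12 cpm where the others held 0 to 0.123 cpm. The groups of 3 WD CD45hi libraries were not tested in this way.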

How the results depend on the processing

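The count of DAM genes called stayed at 6 to 8 on WD and 5 to 9 on CD over 28 alternatives, and Apoe, Spp1, Clec7a and Igf1 passed on both diets in all of them. Limma on log2 TPM, which moved the median of all genes to -0.603 on WD and -0.501 on CD, lost Lpl on both diets (FDR 0.0668 and 0.201), Itgax on CD (FDR 0.0685) and Lgals3 on WD (FDR 0.0831). Relative to that median Lpl was still higher. Lgals3 on WD was also lost in limma-voom (FDR 0.0529) and with only the compared groups (FDR 0.0725), and Gpnmb on WD without both libraries apart on the second component (FDR 0.0857). DESeq2 gained Cst7 (FDR 0.0232) and Gpnmb (FDR 0.0178) on CD, and the edgeR 4 form gained Gpnmb (FDR 0.0317). The cause was not tested for these. Called genes over all genes changed on WD from 775 to 1335 with a limit on the fold set afterwards and 2296 in DESeq2, and ran from 513 to 920 with single libraries left out. On CD they changed from 595 to 1162 and 1794. Of those on WD 77.4% were higher in CD45hi cells, 61.1% in DESeq2 and 38.1% in limma on log2 TPM. On CD it was 85.2%, 70.1%, 61.4% and, in limma-voom, 74.5%. Other DAM genes called went from 7 to 12 and 15 on WD and to 12 and 13 on CD under the same 2 choices. Between diets in CD45hi cells the DAM genes called went from 0 to 1 (Lpl) in DESeq2 and without both libraries apart, and ran from 0 to 1 with single libraries left out. All genes called there went from 38 to 1030 in DESeq2, 69 with a stricter filter, 252 in the edgeR 4 form, 0 with only the compared groups, 290 without both libraries apart, 63 with length offsets and 103 in limma on log2 TPM (23.7% higher on WD, and 35.4% to 63.9% where it moved by over 10 points), and from 1 to 286 with single libraries left out. In CD45lo cells DESeq2 called 4 genes and edgeR 0 (123 at an unadjusted p under 0.05).

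Some differences that did not pass changed sign. Cst7 between the populations on WD was -0.27 without both libraries apart, -0.11 in limma on log2 TPM, and -0.27 to 1.60 with single libraries left out. Cst7 between diets in CD45hi cells was -0.39 in limma-voom, -0.39 in limma on log2 TPM, -1.21 without both libraries apart, and -1.09 to 0.78 with single libraries left out. In CD45hi cells Apoe was -0.014 in limma on log2 TPM and -0.15 to 0.23 with single libraries left out, and Igf1 was -0.39 to 0.17. In CD45lo cells the left-out ranges were -0.28 to 0.079 for Apoe, -0.43 to 0.73 for Spp1 and -0.37 to 3.05 for Gpnmb. For the interaction they were -0.077 to 0.34 for Apoe, -0.25 to 0.16 for Clec7a and -1.11 to 2.31 for Gpnmb. Clec7a was 0.0050 there in limma-voom and 0.085 without both libraries apart, and Igf1 was -0.12 in limma on log2 TPM.

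Deviations from group means correlated weakly between libraries of the same number. The values were -0.0217 to 0.0695 over 7 pairs numbered by sample titles and -0.000466 to 0.0695 over 7 numbered by the files. Unmatched pairs were not compared, so these values cannot show whether libraries of the same number came from the same mouse. A replicate block by titles left 7 DAM genes called on WD (Gpnmb FDR 0.0627) and 2 genes of all between diets in CD45hi cells. A block by file numbers left 6 on WD (Gpnmb FDR 0.106, Lgals3 FDR 0.225) and 353 of all genes, and cannot give diet comparisons. The interaction was 0.12 for Clec7a with the block by titles and -0.0040 for Apoe with the block by file numbers. On CD 7 DAM genes were called with either block. Depth limits Gpnmb most, at or under 3 counts in 6 of the 15 libraries, and the 3 WD CD45hi libraries limit every diet comparison.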

Other observations

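Genes whose pattern over the 15 libraries lay nearest to each DAM gene were looked up by the root mean square (RMS) difference of centred log2 cpm. These are descriptions across libraries that differ mostly between the 2 populations. Nearest to Apoe were Siglec1 (RMS difference 0.347), a receptor of border macrophages that was at 154.2 cpm in CD CD45hi and 7.50 cpm in CD CD45lo cells, and the complement gene C4b (0.354). Nearest to Clec7a were Ifi204 (0.381), an interferon-inducible gene, and the lysozyme gene Lyz2 (0.403). Nearest to Igf1 were the scavenger receptor genes Msr1 (0.382) and Cd93 (0.488).

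Nearest to Lpl were Rassf3 (0.328), with means of 22.0, 33.1, 76.9 and 114.6 cpm in CD CD45lo, WD CD45lo, CD CD45hi and WD CD45hi cells, and Flna (0.364). Rassf3 shares with Lpl the order of the 4 group means. Nearest to Itgax were the AP-1 gene Fosl2 (0.597) and Psd3 (0.617), and nearest to Cst7 were Ctnnd2 (0.522) and Cd274 (0.523). The remaining 3 genes had more distant neighbours. The nearest was Slfn5 for Lgals3 (0.729, followed by Cd244 at 0.742), Cd209g for Spp1 (0.936, followed by Ifitm1 at 0.962) and Rasgrp1 for Gpnmb (1.499, followed by Cd300e at 1.77).

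Summed over the 27 other DAM genes, the WD CD45hi libraries held 25004 to 27300 cpm and the CD CD45hi libraries 19944 to 24905 cpm, which did not overlap. In CD45lo cells the sums were 14700 to 16278 cpm on WD and 15442 to 16789 cpm on CD, which did. Abundant genes weigh most in such sums. In CD45hi cells the mean of Ctsd was 3197 cpm on CD and 4454 cpm on WD, and that of B2m 3754 and 4530 cpm. How often sums over other genes are apart was not tested. The fitted diet difference in CD45hi cells was above 0 for 22 of the 27, with a median log2 of 0.289 beside -0.019 over all genes. None of the 27 passed in edgeR, 7 had an unadjusted p under 0.05 (2628 of all 14967 genes did), DESeq2 called 2 (1030 of all genes) and limma-voom 1.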
